A study of Drosophila melanogaster with 3 samples.

Results

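The proteasome subunit genes were taken as the protein-coding genes of the Ensembl BDGP6 annotation whose symbol starts with Prosalpha or Prosbeta, or with Rpn or Rpt followed by a digit. This gave 48 genes of the 13945 protein-coding genes on chromosomes that carried peaks. Of the 48, 32 encode the standard subunits and 16 are paralogues whose symbol carries the suffix T or R (such as *Prosalpha6T* or *Rpn12R*), which were counted apart. The standard genes comprise 7 of the alpha ring, 7 of the beta ring, 12 of the Rpn class and 6 of the Rpt class. The paralogues comprise 5, 6, 2 and 3 of the same classes. Binding was mapped by chromatin immunoprecipitation and sequencing (ChIP-seq), in which DNA fragments bound to a protein are recovered with an antibody and sequenced. The protein was CG12104, an HMG-box protein, carried as a C-terminal GFP fusion by a transgenic *Drosophila melanogaster* line and recovered with an antibody against GFP. All 3 biological replicates were whole embryos of pooled sexes, aged 0 to 24 h, with chromatin sonicated to 200 to 800 bp. They form 1 group from 1 line, so the spread between them covers repeat collections but no other line, and there was no second condition to test against. Whole embryos mix all cell types, so strong binding in a few cells and weak binding in many cannot be told apart.

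The proteasome is the large protease that degrades ubiquitin-tagged proteins in the cytoplasm and nucleus of nearly every cell. Its barrel-shaped core particle stacks alpha rings, which gate the entry, on beta rings, which hold the proteolytic sites. A regulatory particle sits on the barrel: its base contains a ring of Rpt ATPases that unfold the substrate, and its lid removes the ubiquitin chain. The subunit roles given here were worked out mainly in yeast and mammalian particles. Because the subunits are needed together, their genes are a textbook case of coordinated expression, and in flies several of the paralogues are expressed in testis.

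The authors deposited lists of called regions, each region with a summit (the position of highest signal), a signal value and a q value. The strictest list held the 4060 peaks that they retained by the irreproducible discovery rate (IDR), a measure of agreement between replicates, with signals from 105.9 to 2158. Calling on all replicates together gave 26959 candidate regions, down to a signal of 34.8, and calling on each replicate gave 30000. Every member peak in the IDR set had the same rank and signal there as in the pooled list, down to *Rpt5* at rank 4048. The IDR set and the pooled list are therefore not separate evidence for a member. A place in the set does not show that each replicate ranked the peak high. The pooled and replicate lists are permissive. Their highest q values were 0.960 in the pooled list and 0.915, 0.959 and 0.815 in replicates 1, 2 and 3. In the IDR set the highest was 0.0152. Signal is the authors' own peak value on the scale of its own list, so replicates were compared only by rank, with rank 1 the strongest. The top regions of a replicate are its 4060 strongest, as many as there are IDR peaks. Read counts do not accompany the lists, and library depth is therefore unknown. A gene was counted as having a summit when one lay within 500 bp of any of its annotated transcription start sites (TSS), and distances are negative upstream of the TSS.

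Sequences around the member summits are shown for 7 of the 10 members with an IDR peak, so that the summit sites of the members can be compared. The summits mark the highest signal of fragments of 200 to 800 bp, so the bases in contact with the protein, directly or through others, were not resolved. Each runs 5' to 3' on the strand of the gene, was read from the Release 6 (dm6) reference genome, and covers up to 100 bp to each side of the summit without exons. The *Rpn3* stretch is chr2L:19051613-19051789, and its capitals mark the second copy of an exact repeat of 72 bp. The stretch of *Rpn5* is chr3R:5789180-5789328, that of *Rpn11* is chr2L:5059886-5060086 (minus strand) and that of *Rpn2* is chr3R:29153284-29153484. The *Rpn12* stretch is chr3L:16582768-16582968, with the DRE word TATCGATA and the motif 7 core word CAGCNCTG in capitals. The *Prosbeta2* stretch is chr3L:14999667-14999787, with TATCGATA and an E-box (CACCTG, here on the opposite strand) in capitals. The *Rpt5* stretch, chr3R:23752835-23752875, is all of the DNA between the start sites of *Rpt5* and *RanBP3*. The stretches of *Rpn5*, *Rpn11*, *Rpn2* and *Rpt5* hold none of the words marked here, so no letter is in capitals. Other words of the promoter search described below were not marked. On either strand, ACAAT occurs in the stretches of *Rpn3*, *Rpn5*, *Rpn2* and *Rpn12*, and TATAAA in those of *Rpn5* and *Rpn11*. The *Rpn2* stretch also holds CGATA.
Rpn3: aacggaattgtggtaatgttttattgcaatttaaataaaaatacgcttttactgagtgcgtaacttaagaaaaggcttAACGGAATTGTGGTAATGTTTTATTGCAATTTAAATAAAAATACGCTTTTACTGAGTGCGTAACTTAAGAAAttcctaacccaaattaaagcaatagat
Rpn5: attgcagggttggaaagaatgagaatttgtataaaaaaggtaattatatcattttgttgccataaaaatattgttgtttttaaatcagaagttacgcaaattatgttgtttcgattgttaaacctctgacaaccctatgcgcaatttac
Rpn11: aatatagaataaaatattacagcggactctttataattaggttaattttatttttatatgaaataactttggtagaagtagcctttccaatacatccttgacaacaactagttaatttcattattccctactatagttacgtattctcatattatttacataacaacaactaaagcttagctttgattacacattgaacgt
Rpn2: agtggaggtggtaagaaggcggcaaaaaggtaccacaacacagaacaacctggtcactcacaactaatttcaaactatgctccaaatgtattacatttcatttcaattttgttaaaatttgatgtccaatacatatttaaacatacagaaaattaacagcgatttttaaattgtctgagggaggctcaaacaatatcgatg
Rpn12: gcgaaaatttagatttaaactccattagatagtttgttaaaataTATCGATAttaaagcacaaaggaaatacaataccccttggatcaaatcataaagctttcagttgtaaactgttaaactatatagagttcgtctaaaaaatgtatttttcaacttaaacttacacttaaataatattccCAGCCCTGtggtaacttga
Prosbeta2: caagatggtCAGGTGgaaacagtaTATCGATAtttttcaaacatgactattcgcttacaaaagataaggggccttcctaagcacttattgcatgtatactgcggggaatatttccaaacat
Rpt5: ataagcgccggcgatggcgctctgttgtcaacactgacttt

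The repeat upstream of *Rpn3* ran from 177 to 106 bp and again from 99 to 28 bp before the TSS, a period of 78 bp. No other copy of the 72 bases was found on the chromosome arms. In the other 6 stretches the longest exact repeat was 4 to 10 bp. The handling of reads that match both copies is not given, and its effect on the *Rpn3* summit was not tested.

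An IDR summit lay at 10 of the 48 genes (20.8%), against 18.7% of all protein-coding genes, so the share over the whole list was close to the background. All 10 were standard subunits (10 of 32, 31.3%) and none was a paralogue (0 of 16, which allows a share of up to 18.75% by counting error alone). The 10 were spread unevenly over the particle: 8 of 12 Rpn genes, 1 of 6 Rpt genes, 1 of 7 beta genes and 0 of 7 alpha genes. Divided by position in the particle, a division made after the values were seen, an IDR summit lay at 6 of 8 lid genes, 3 of 10 base genes and 1 of 14 core genes. Whether these shares differ from the background was not tested. The 8 lid genes leave out *Sem1*, a lid subunit gene outside the symbol rule that had neither an IDR summit nor a pooled region. The standard genes fell to 4 of 32 (12.5%, against 13.6% of all genes) when each peak went only to the nearest gene, and to 3 of 32 (9.38%, against 11.1%) with the 2030 strongest IDR peaks, below the background in both. With a window of 200 bp they were 7 of 32 (21.9%, against 12.2%). With the most upstream TSS alone they were 9 of 32 (28.1%, against 16.7%), above the background in both.

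The replicates gave the following counts one by one, which are no independent support for the division, since the IDR set was made from these replicates. Among the top regions of replicate 1, 5 of 8 lid genes and 2 of 10 base genes had a summit, where 20.2% of all protein-coding genes did. In replicate 2 the counts were 4 and 1, with a background of 17.0%, and in replicate 3 they were 3 and 1, with 16.9%. The lid share was 50% ± 12.5 (SD, n = 3) and the base share 13.3% ± 5.77. The core particle was less even, with 5 of 14 genes in replicate 1, 0 in replicate 2 and 1 in replicate 3, or 14.3% ± 18.9. Over all 48 genes the counts were 12, 5 and 5, a share of 15.3% ± 8.42, beside 18.0% ± 1.85 of all protein-coding genes.

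**Figure D1:**
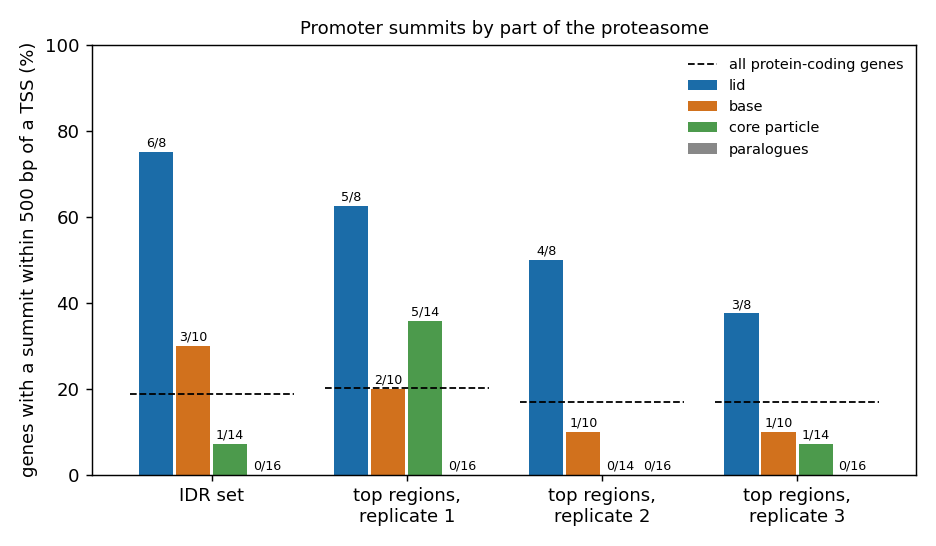
Percentage of genes with a summit within 500 bp of a TSS (vertical axis) in the IDR set and among the 4060 strongest regions of each replicate. Bars are lid (without *Sem1*), base, core particle and paralogue genes with the count above each, and dashed lines give the share over all 13945 protein-coding genes; lid bars are the highest in every group, and the core bar exceeds the line in replicate 1 only.

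In the permissive lists the contrast lay between the standard genes and the paralogues. The pooled list had a summit at 21 of 32 standard genes (65.6%) and 1 of 16 paralogues, where 46.2% of all protein-coding genes had one. The whole list of replicate 1 reached 26 standard genes and 2 paralogues, with a background of 49.3%. That of replicate 2 reached 16 and 2, with 44.1%, and that of replicate 3 reached 20 and 1, with 48.4%. The standard genes averaged 64.6% ± 15.7 over the replicates and the paralogues 10.4% ± 3.61, on either side of the 47.3% ± 2.77 of all protein-coding genes and without overlap between the groups. Lid genes were found in nearly all of these lists (8, 7 and 8 of 8), base genes in 7, 4 and 6 of 10, and core genes in 11, 5 and 6 of 14.

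**Figure D2:**
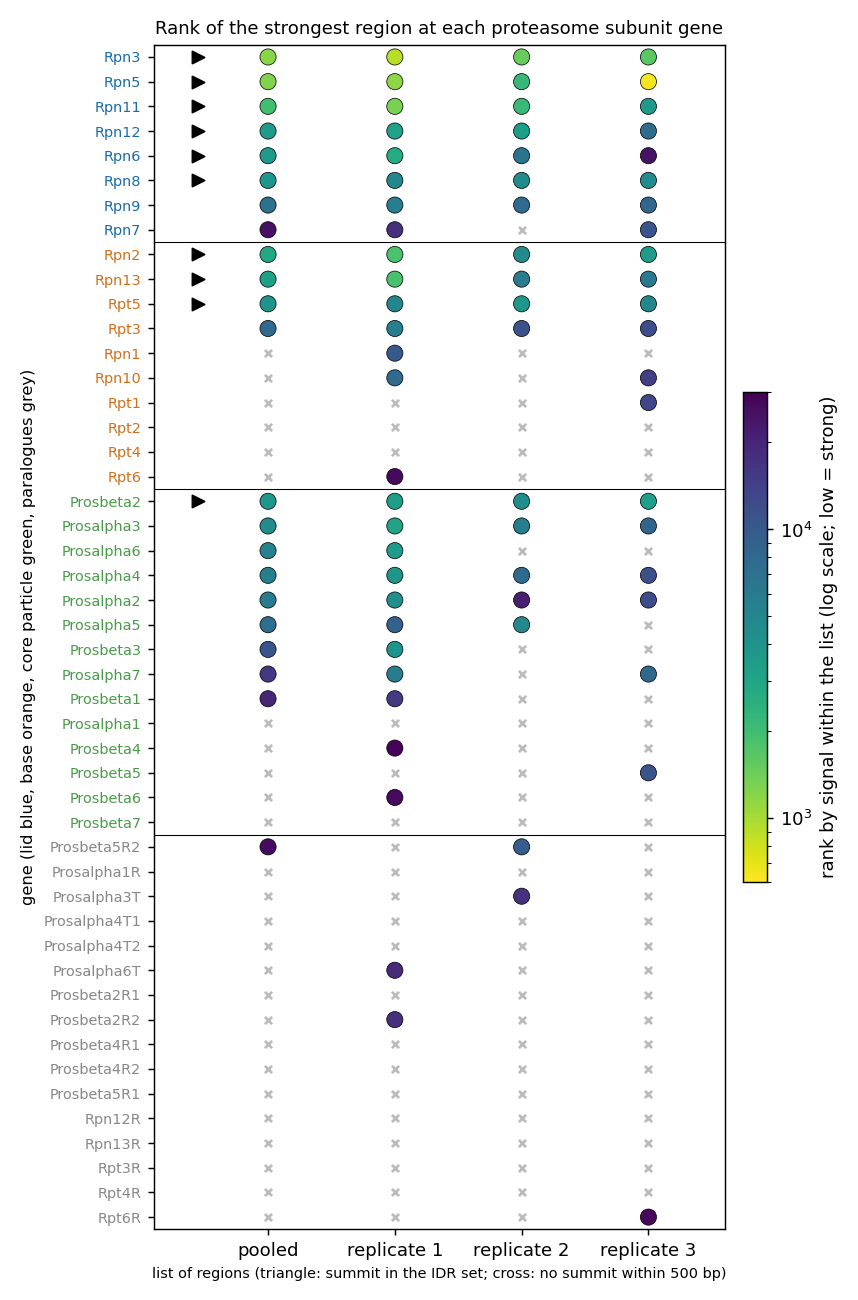
Rank by signal (colour, log scale, yellow strongest) of the strongest region within 500 bp of each of the 48 genes in the pooled list and in each replicate list. Triangles mark the 10 genes with an IDR summit and crosses the absence of a summit; 15 standard genes and no paralogue had a region in all 3 replicate lists. The share of all protein-coding genes with a region in all 3 was not computed.

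The lid genes gave the strongest member peaks. *Rpn3* (FBgn0261396), a structural lid subunit of the PCI-domain family, had its summit 84 bp upstream in the region chr2L:19051481-19051930, between genes, with a pooled signal of 225.5 (rank 1195, q = 0.00029). Its overlapping region ranked 916 in replicate 1, 1491 in replicate 2 and 1635 in replicate 3, so it was among the top regions of all 3. The strongest summit of each replicate near *Rpn3* lay at -148, -172 and +36 bp, a wider scatter than at *Rpn2* or *Rpt5*, and the pooled list held a second region there.

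*Rpn5* (FBgn0028690), another PCI-domain subunit of the lid, had a peak of signal 219.7 (rank 1255, q = 0.00029) at chr3R:5789055-5789504. Its summit lay 213 bp upstream, inside an intron of the divergent neighbour *Hat1*. The region ranked 1164, 2170 and 646 in replicates 1, 2 and 3. Its rank of 646 in replicate 3 was the best of any member in any replicate. *Rpn11* (FBgn0028694), the deubiquitinase that cuts the ubiquitin chain from the substrate, had a peak of signal 170.3 (rank 1955, q = 0.000767) at chr2L:5059761-5060210, with the summit between genes and 196 bp upstream. Its ranks were 1314, 2160 and 3639. *Rpn3*, *Rpn5* and *Rpn11* were the only members whose IDR peak overlapped a top region in all 3 replicates.

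The other lid peaks were near the lower limit of the IDR set. *Rpn12* (FBgn0028693), a PCI-domain subunit, had a signal of 114.7 (rank 3583, q = 0.00712) at chr3L:16582643-16583092, with the summit 160 bp upstream. It ranked 3133, 3437 and 7477 in the replicates, a top region in 2 of them. *Rpn6* (FBgn0028689), which clamps the lid to the core particle, had a signal of 113.0 (rank 3674, q = 0.0083) at chr2R:14752186-14752635, 140 bp upstream of its nearest TSS and within an intron of the gene itself. The most upstream start of *Rpn6*, at position 14752910 on the minus strand, left the summit at 14752411 downstream of it and barely within 500 bp. *Rpn6* was the least even member: it ranked 2707 and 6781 in replicates 1 and 2 but 24646 in replicate 3, where the authors' q value was 0.689. *Rpn8* (FBgn0002787), the partner of *Rpn11* in the deubiquitinating dimer, had a signal of 109.8 (rank 3834, q = 0.0103) at chr2R:24402559-24403008. Its summit lay 221 bp upstream of the downstream start site of the gene but 2756 bp inside the gene from the other annotated start, within an intron, and with the most upstream TSS alone *Rpn8* had no IDR summit. It ranked 4941, 4549 and 4639, just outside the top regions of every replicate.

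The remaining lid genes had candidates below the IDR limit. *Rpn9* ranked 7037 in the pooled list (signal 72.5, 89 bp upstream) and 5687, 7826 and 8396 in the replicates. *Rpn7* ranked only 25360 (signal 35.9, 86 bp upstream), with ranks of 17358 and 10674 in replicates 1 and 3 and no region in replicate 2. All 8 lid genes within the symbol rule therefore had a summit in the pooled list, from 84 to 221 bp upstream, while their pooled ranks ran from 1195 to 25360. The lid gene outside the rule, *Sem1*, had no pooled region.

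In the base, peaks lay at a scaffold, a ubiquitin receptor and an ATPase. *Rpn2* (FBgn0028692), the scaffold that contacts the lid, had a signal of 134.3 (rank 2862, q = 0.00227) at chr3R:29153159-29153608, with the summit between genes and 140 bp upstream. It ranked 1855, 4534 and 3536. *Rpn13* (FBgn0033886), a ubiquitin receptor, had a signal of 122.8 (rank 3245, q = 0.00447) at chr2R:13960151-13960600. Its summit was the only member IDR summit downstream of the nearest TSS of its gene, 28 bp into the 5' untranslated exon, and it ranked 1869, 5944 and 6117. *Rpt5* (FBgn0028684), 1 of the 6 ATPases of the ring, had a signal of 106.1 (rank 4048, q = 0.0152) at chr3R:23752627-23753076, 24 bp upstream. It ranked 5011, 3798 and 4896, and its summits in the 3 replicates lay at -24, -12 and -20 bp, the tightest placement among the 10.

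The other base genes were mostly weak or absent. The ATPase gene *Rpt3* ranked 7860 in the pooled list (signal 67.3, 306 bp upstream) and 5696, 11010 and 12148 in the replicates. *Rpn10*, a ubiquitin receptor, ranked 7835 in replicate 1 and 14457 in replicate 3 and was not in the pooled list. *Rpn1*, the other large scaffold, and the ATPase gene *Rpt6* had a region in replicate 1 only (ranks 10203 and 27070), and *Rpt1* in replicate 3 only (rank 13244). *Rpt2* and *Rpt4* had no region within 500 bp in any list.

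In the core particle a single gene, *Prosbeta2* (FBgn0023174), had an IDR summit. It encodes the subunit with the trypsin-like proteolytic site. The peak had a signal of 110.9 (rank 3777, q = 0.00967) at chr3L:14999462-14999911, with the summit between genes and 264 bp upstream, the farthest of the 10 from its TSS. It ranked 3340, 4437 and 3398, a top region in replicates 1 and 3. Of the other catalytic subunits, *Prosbeta1* (caspase-like) ranked 19585 in the pooled list (signal 40.9) and 15584 in replicate 1 alone, and *Prosbeta5* (chymotrypsin-like) had a region in replicate 3 alone, at rank 10910.

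The alpha ring had no IDR summit, yet 6 of its 7 genes had a pooled candidate. *Prosalpha3* came closest, with a signal of 98.4 at rank 4516, against the lower limit of 105.9 for the IDR set and the 106.1 of *Rpt5* just inside it. It ranked 3082, 5681 and 8476 in the replicates, a top region of replicate 1. *Prosalpha6*, at pooled rank 5299 (signal 88.2, 206 bp upstream), ranked 3571 in replicate 1 and had no region in the other replicates. *Prosalpha4*, at pooled rank 5649 (signal 84.3), ranked 3833, 7713 and 11551. The candidates of these genes were thus strongest in replicate 1 and lower or absent elsewhere.

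*Prosalpha2* (pooled rank 5991, signal 80.8, 274 bp upstream) ranked 4270, 21226 and 11982. *Prosalpha5* (pooled rank 7544, signal 69.2) was the exception to the lead of replicate 1, with ranks of 8925 and 4731 in replicates 1 and 2 and no region in replicate 3. *Prosalpha7* (pooled rank 15957, signal 45.2) ranked 5858 in replicate 1 and 7984 in replicate 3. In the beta ring, *Prosbeta3* (pooled rank 10669, signal 56.0) ranked 3939 in replicate 1 and had no region elsewhere. *Prosbeta4* and *Prosbeta6* had a region in replicate 1 only (ranks 29084 and 26943), and *Prosalpha1* and *Prosbeta7* had none in any list. Of the 14 core genes, 4 had a region in all 3 replicate lists, 2 in 2 lists, 6 in 1 list and 2 in none. The same split was not computed over all protein-coding genes, so these counts have no background beside them.

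**Figure D3:**
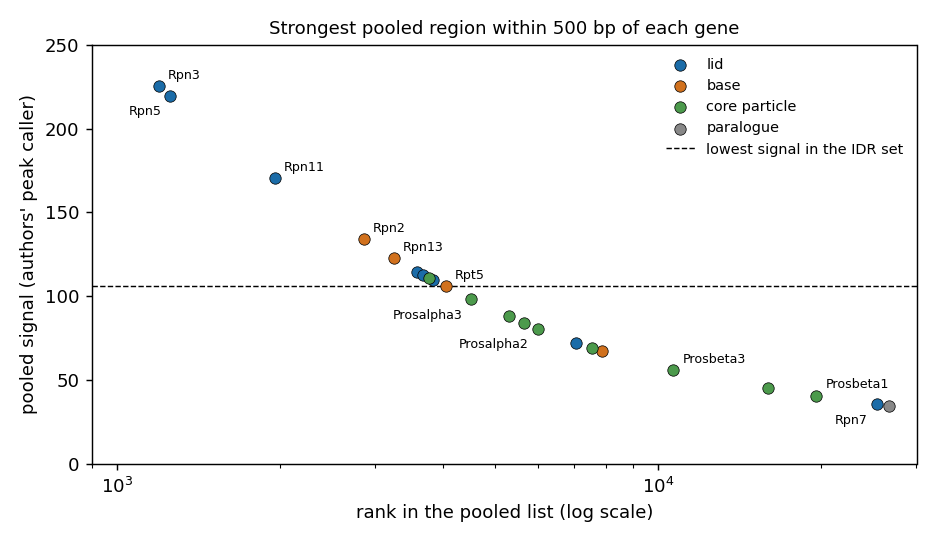
Pooled signal (vertical axis, authors' peak value) against rank in the pooled list (horizontal axis, log scale) for the strongest region at each of the 22 genes with a pooled summit. The dashed line is the lowest signal of the IDR set, 105.9; *Rpn3*, *Rpn5* and *Rpn11* stand apart at 170.3 to 225.5, and the 6 weakest IDR peaks lie between 106.1 and 122.8, just above *Prosalpha3* at 98.4.

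Within the IDR set the member peaks were weak. Their median signal was 118.7, against 179.2 for all 2040 IDR peaks with a summit within 500 bp of a protein-coding TSS, and only *Rpn3* and *Rpn5* were above that median. Their median rank was 3414, against 1805, and 6 of the 10 had ranks from 3046 down, the lowest 25% of the set, where 21.0% of the 2040 lay. The ranks of the same peaks in replicates 1, 2 and 3 had medians of 2288, 4117.5 and 4139, against 1507, 1687 and 1847.5 for all 2040. Member peaks were thus lower than the usual promoter peak in each replicate, and least so in replicate 1.

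Support by single replicates varied among the members. Of the 10 member peaks, 3 overlapped a top region in all 3 replicates, 3 (*Rpn2*, *Rpn12* and *Prosbeta2*) in 2 replicates, 3 (*Rpn13*, *Rpn6* and *Rpt5*) in 1, and *Rpn8* in none. Among the 2040 promoter peaks 69.9% overlapped a top region in all 3 replicates. This share was 54.0% of the 1334 peaks ranked no higher than *Rpn3*, and 17.5% from rank 3046 down. Where a top region was required only in the other replicates, 3 genes qualified without replicate 1 (*Rpn3*, *Rpn5* and *Rpn11*), 5 without replicate 2 and 4 without replicate 3. All 10 peaks overlapped some region in the whole list of every replicate, which for *Rpn6* in replicate 3 was a region at rank 24646 (authors' q = 0.689). The pooled calls used these same replicates, so this overlap is no independent support.

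Summits lay just upstream of the start sites. Among the 10 members the median distance from the nearest TSS of the gene was -150 bp, from -264 to +28. By this measure 9 of 10 lay upstream, and 6 of 10 lay between genes. Measured in each replicate at the same 10 genes the median was -146.5, -157 and -166 bp, or -156.5 ± 9.76 bp (SD, n = 3). All genes with an IDR summit had a median of -155 bp with 89.8% upstream, so the placement at these members was close to that of bound genes at large. In the pooled list 20 of 21 standard genes had their strongest summit upstream (95.2%), against 77.1% over all genes with a pooled summit. In replicates 1, 2 and 3 the strongest summit was upstream at 22 of 26, 15 of 16 and 17 of 20 standard genes, where all genes gave 74.6%, 75.4% and 73.5%.

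**Figure D4:**
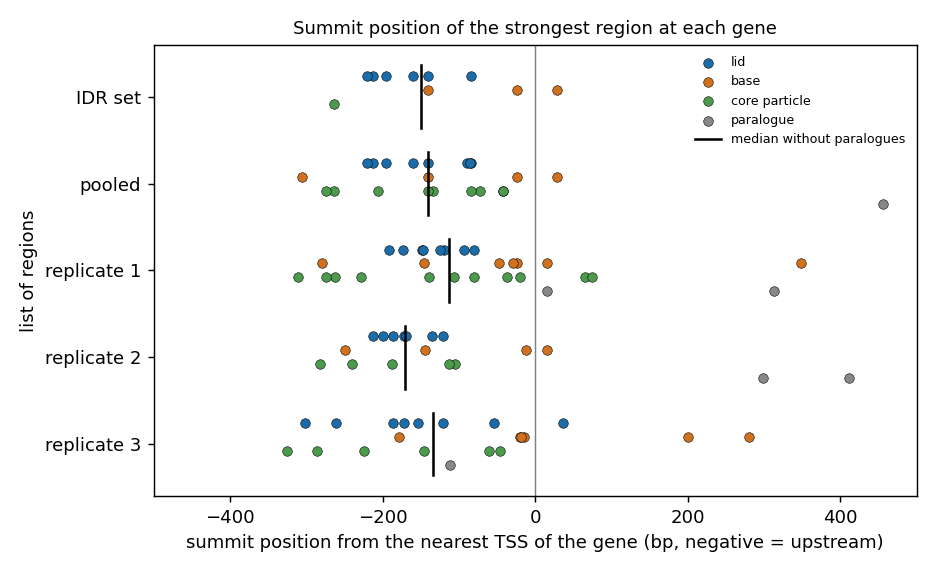
Distance in bp (horizontal axis, negative upstream) from the nearest TSS of the gene to the summit of its strongest region in each list, with points coloured by lid, base, core particle and paralogue. Vertical bars are medians without paralogues, -150 bp in the IDR set; nearly all lid points lie upstream, and 4 of the 6 paralogue points lie more than 200 bp downstream.

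Most paralogues were absent from every list. Of the 16 genes, 11 had no region within 500 bp in any list, beside 4 of the 32 standard genes (*Prosalpha1*, *Prosbeta7*, *Rpt2* and *Rpt4*) and 34.9% of all protein-coding genes. Only 3 paralogues, but 21 standard genes, had another protein-coding TSS within 500 bp. Among genes without such a neighbour, 9 of 13 paralogues and 1 of 11 standard genes had no region, beside 42.7% of all such genes. The other 5 paralogues had a region in 1 replicate each, at ranks from 9557 to 27638 of 30000. *Prosbeta5R2* ranked 9557 in replicate 2 and 26688 in the pooled list (signal 35.0, near the lowest of that list), with the pooled summit 456 bp downstream. *Prosbeta2R2*, with rank 17369 in replicate 1, and *Prosalpha3T*, with rank 17276 in replicate 2, also had downstream summits, at +313 and +299 bp. *Prosalpha6T* (rank 18882 in replicate 1, +16 bp) and *Rpt6R* (rank 27638 in replicate 3, -112 bp) lay nearer to the start. No paralogue had a region in 2 replicates, and none was among the top regions of any replicate.

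The missing region at *Prosalpha1* carries a limit of its own. Between 250 bp before and 50 bp after the TSS it shared an identical stretch of 284 bp with its paralogue *Prosalpha1R* on the same arm, while the other 15 paralogues shared at most 12 bp with their standard gene. The handling of reads that fit both genes is not given, and its part in the missing regions at *Prosalpha1* and *Prosalpha1R* was not tested. For members without an IDR summit the nearest one was far away: none lay between 500 and 1000 bp, and the closest was 1996 bp from *Prosbeta6*. The median distance was 7645.5 bp for the 22 standard genes and 41331 bp for the 16 paralogues, beside 11980 bp for all 11332 protein-coding genes without a summit.

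At 8 of the 10 member summits (80%) the TSS of another protein-coding gene lay within 500 bp, in all 8 cases on the opposite strand and pointing away. Of all 2613 genes with an IDR summit, 63.3% shared the summit with another gene and 59.5% with a divergent one, and whether the members differ was not tested. The start sites were 42 bp apart for *Rpt5* and *RanBP3*, which encodes a Ran-binding protein, 109 bp for *Rpn5* and *Hat1*, a histone acetyltransferase, and 178 bp for *Rpn3* and *l(2)37Bb*. They were 250 bp apart for the downstream start of *Rpn6* and *ave*, which starts within the longer *Rpn6* transcript. The distance was 258 bp for *Rpn2* and *Slbp*, the histone mRNA stem-loop binding protein, and 271 bp for *Rpn13* and *CtsL1*, a cathepsin protease. *Prosbeta2* and *mRpL39*, a mitochondrial ribosomal protein gene, were 285 bp apart, and the downstream start of *Rpn8* and the kinase gene *Slik*, which overlaps the longer *Rpn8* transcript, 325 bp. *Rpn11* and *Rpn12* had no such neighbour.

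At such shared promoters a peak cannot be assigned to either gene from position alone. The member had the nearest TSS in 4 of 10 cases (*Rpn3*, *Rpn11*, *Rpn12* and *Rpn13*). The *Prosbeta2* summit was 21 bp from the TSS of *mRpL39*, and those of *Rpn6*, *Rpn8*, *Rpn2*, *Rpn5* and *Rpt5* were 110, 104, 118, 104 and 18 bp from the neighbour's TSS. Members with another protein-coding TSS within 500 bp of their own had an IDR summit in 8 of 24 cases, close to the 36.4% of all such genes. Members without one had a summit in 2 of 24 cases, beside 10.8% of all such genes. Without the paralogues the counts were 8 of 21 (38.1%) with a close neighbour and 2 of 11 (18.2%) without. Whether these shares differ from those of all genes was not tested. Among lid genes the counts were 4 of 6 with a close neighbour and 2 of 2 without, among base genes 3 of 6 and 0 of 4, and among core genes 1 of 9 and 0 of 5.

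By chromosome arm the summits lay at 2 of 8 members on 2L (19.0% of all protein-coding genes there), 3 of 13 on 2R (17.4%), 2 of 7 on 3L (20.4%) and 3 of 14 on 3R (20.3%). None of the 6 members on the X had one, where 16.1% of all protein-coding genes did. These 6 were *Prosalpha4*, *Rpt3*, *Rpt4*, *Rpt6*, *Prosbeta2R1* and *Rpn13R*, and 2 of them, *Prosalpha4* and *Rpt3*, had a region in all 3 replicate lists.

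Promoter sequences of the members were searched for 9 words on both strands, from 250 bp before to 50 bp after the most upstream TSS. TATCGATA, the DNA replication-related element bound by the factor DREF, was present at 12 of 32 standard genes (37.5%) and at none of the 16 paralogues, against 9.37% of all promoters of this length. It was at 5 of the 10 members with an IDR summit (*Rpn3*, *Rpn12*, *Rpn13*, *Prosbeta2* and *Rpt5*) and at 7 of the 22 standard genes without. Among all promoters with an IDR summit the share was 14.8%. At *Rpn6* and *Rpn8* the most upstream TSS, around which the words were searched, was not the start nearest the summit. The match nearest a summit was at *Prosbeta2*, where the upstream copy shown in the sequence began 4 bp downstream of the summit and a further copy began 10 bp upstream of the TSS. Within 100 bp of the summit the word was at 3 of 10 members (*Prosbeta2*, *Rpn12* and *Rpt5*), against 6.62% of the 2040 promoter peaks. The shorter CGATA, contained in TATCGATA, was at 27 standard genes (84.4%) and 8 paralogues, against 47.5% of all promoters.

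The other words varied among the members. GGTCACAC, a core of the motif bound by M1BP, was at 5 standard genes, all without a summit (*Prosalpha2*, *Prosalpha4*, *Prosbeta3*, *Rpn1* and *Rpn7*), against 7.71% of all promoters. CAGCNCTG was at 7 (21.9%), of which *Rpn12* had a summit, against 7.32%. The antioxidant response core TGACNNNGC, the kind of site bound by Cnc and Maf proteins, was at 5 standard genes without a summit (*Prosalpha2*, *Prosbeta3*, *Rpn1*, *Rpn7* and *Rpt6*) and 1 paralogue, against 8.64%. The E-box CACCTG was at 1 standard gene, *Prosalpha2*, against 9.34%, and GAGAG was at 3 (9.38%) but at 6 of 16 paralogues, against 29.8%. ACAAT, a word bound by Sox-type HMG boxes, was at 20 (62.5%), against 61.5%, and TATAAA at 13 (40.6%), against 45.9%. Within 100 bp of the summit ACAAT was at 7 of 10 members, against 51.2% of the 2040 promoter peaks, a difference that was not tested. Among all promoters with an IDR summit the shares of GGTCACAC, CAGCNCTG and TGACNNNGC were 11.5%, 12.6% and 8.38%. With 10 bound members, whether their counts differ from these shares was not tested. A match is a description of the letters and does not show binding by the named factor.

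Genes that act with the proteasome but lie outside the symbol rule were described from a list of 22, of which 21 were matched in the annotation. An IDR summit lay at 7 of 21, beside the 18.7% of all protein-coding genes. The strongest was at *RpS27A*, which encodes ubiquitin fused to a ribosomal protein, with a signal of 322.5 (rank 603, 22 bp upstream) and ranks of 1006, 622 and 398 in the replicates. *Ubi-p63E*, the polyubiquitin gene, had a signal of 222.3 (rank 1222, 16 bp downstream), a second IDR peak and ranks of 1187, 1830 and 1261. These ranks are among the top regions of every replicate, while the other 2 ubiquitin genes of the list had no IDR summit: *RpL40* had a pooled candidate at rank 8118 and *Ubi-p5E* no pooled region.

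Among assembly factors and regulators, *Pomp*, which chaperones the assembly of the core particle, had a signal of 224.7 (rank 1201, 216 bp upstream) and ranks of 2078, 1034 and 1406. *Keap1*, which holds the proteasome-gene activator Cnc in check, had a signal of 169.6 (rank 1970, 198 bp upstream) and ranks of 1152, 2502 and 2168. *PI31*, a regulator that binds the core particle, had 148.6 (rank 2454, 320 bp upstream) and ranks of 4367, 2415 and 2698. *Pomp* and *Keap1* were thus among the top regions of all 3 replicates and *PI31* of 2. *Usp14*, a deubiquitinase of the regulatory particle, had 123.0 (rank 3231, 94 bp upstream) and ranks of 2411, 3920 and 5300. The gene *rngo*, the fly homologue of the shuttle protein Ddi1, had 106.5 (rank 4019, 50 bp downstream) and ranks of 2434, 7980 and 8504. *cnc* itself had only a pooled candidate at rank 5590 (signal 85.0), and *maf-S*, its partner gene, had none.

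Pooled candidates alone lay at *Uba1* (rank 4232), the ubiquitin-activating enzyme, *Ubqn* (4255), *Uch-L5* (4409), *Npl4* (4975) and *Pngl* (7079). No pooled region was found at *REG*, *Sem1*, *Rad23*, *TER94* and *p47*. *Sem1* encodes the small remaining subunit of the lid and was not in the count of 8 lid genes.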

How the data were processed

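ChIP-seq regions of CG12104-GFP were analysed for 3 biological replicates of whole embryos, grouped by the labels. Per the text files deposited with the regions, each replicate was called against 1 control alignment, and a pooled list and an IDR set were derived. The sources used here do not name the aligner or the peak caller. Each region carries a signal value, deposited by the authors and scaled within its list only, and the -log10 of a q value, also deposited by the authors. The lists hold no counts of reads, so depth is unknown and no interval covers it. Regions in dm3, control alignments and signal tracks were not used here.

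Genes came from Ensembl release 115 (BDGP6). The coordinates of all 48 members equalled those of RefSeq on Release 6, and all region ends lay within its chromosomes. Summits within 500 bp of any TSS were counted with Python 3.11.15, numpy 2.4.6, pandas 2.3.3 and matplotlib 3.10.9. Gene assignment was tested on simulated regions. Promoter words were searched on both strands, and the counts of CGATA include those of TATCGATA, which contains it. Coordinates are 1-based. With 1 group and no second condition no test was run, and shares stand beside those of all protein-coding genes, without p-values.

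The named genes were those with an IDR summit, standard members with a pooled candidate or regions in at least 2 replicate lists, the neighbours at shared summits and the pathway genes with an IDR summit. Other members and pathway genes were named where counts were small, after their values were seen. The members and lists were chosen with earlier results of these data known. Alternatives tried were the TSS window, the TSS used, nearest-gene assignment, the stronger IDR peaks and leaving out each replicate. Where a count was 0, the upper limit is 3 divided by the number of genes.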

Additional observations from a re-analysis of the deposited data

How the results depend on the processing

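The count of 10 standard members with an IDR summit, which is also the count over all 48, was 7 with a window of 200 bp, 10 with 1000 bp, 9 with the most upstream TSS alone and 9 where the region had to cover a TSS. In that order the shares were 21.9%, 31.25%, 28.1% and 28.1%, above the 12.2%, 21.3%, 16.7% and 12.7% of all genes. The count fell to 4 when each peak went only to the nearest gene and to 3 with the 2030 IDR peaks of highest signal. The share of the standard genes was then 12.5% and 9.38%, below the 13.6% and 11.1% of all genes. Leaving out 1 replicate meant requiring a top region in both others, which the count of 10 does not require. It gave 3 to 5 (9.38% to 15.6% of standard genes, beside 13.9% to 14.7% of all genes). The same requirement in all 3 replicates, added after seeing the data, gave 3 (9.38%, beside 12.9%). The IDR set was not made anew without a replicate. These counts therefore show the effect of the requirement, and the effect of losing a replicate on the set was not tested. The paralogue count was 0 under every one of these settings.

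Lid genes (6) were 3 with the nearest gene, 3 with the 2030 peaks, 3 with top regions in all replicates and 3 or 4 without 1 replicate; base genes (3) were 1, 0, 0 and 0 or 1. The pathway count, whose alternatives were chosen after seeing the data, was 4 with the 2030 peaks, 4 with top regions in all replicates, 4 to 5 without 1 replicate and 5 to 7 otherwise. The median distance of -150 bp was -140 bp with 200 bp or the most upstream TSS, -196 bp with the 2030 peaks and -196 to -178 bp without 1 replicate. Of the 10 member peaks, 3 overlapped the top regions of all replicates at 1 bp or 50% overlap, and 10 overlapped regions of all whole lists. No paired analysis was possible because the samples form 1 group and the result comes from no test. Unknown depth limits what the absence of a region means.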

Other observations

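GC content within 100 bp of the summit was 33.6% at the median of the 10 member peaks (26.4% to 43.8%), beside 33.3% for the 2040 promoter peaks. Several members had more than 1 candidate region in the pooled list within 500 bp: *Rpn8* had 3, and *Rpn3*, *Rpn6*, *Rpn11*, *Prosalpha3* and *Prosalpha6* had 2 each.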
